A study of Ovis aries with 42 samples.

Results

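The results concern 4 sheep genes known here by Ensembl ID alone: ENSOARG00000016594, ENSOARG00000016596, ENSOARG00000014131 and ENSOARG00000002400. They are 4 of the 27054 IDs in the deposited count table. They were chosen by their counts in the luteal and anestrous hypothalamus, lower in the luteal libraries with a small spread, so that difference is given as a description and is not tested. When all features were ordered by the evidence for a luteal against anestrous difference in the hypothalamus, they held places 1 to 4. Gene names were not analysed here, so nothing is said of what these genes do, and the tissues were not checked against named markers.

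The libraries came from adult female Rasa Aragonesa sheep, a Spanish breed that stops cycling for part of the year. Both the hypothalamus (HT) and the pars tuberalis (PT) were sampled in the luteal phase, the follicular phase or anestrus, with 7 libraries in each of the 6 groups and no other treatment or genotype named. Whether each library stands for a different ewe, and whether an HT and a PT library share one, is not stated in the labels, so p-values measure the spread between these samples, which may be technical. Library totals ran from 14649356 to 37726207 counts. Luteal PT libraries 22, 23 and 24 stood apart from the rest of the PT in all 4 genes, and PT results that rest on them are given with and without them.

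The hypothalamus drives reproduction through the pulsed release of gonadotropin-releasing hormone, which ovarian steroids restrain or enhance over the cycle. In the luteal phase progesterone from the corpus luteum slows those pulses. In the follicular phase estradiol rises and leads to the ovulatory surge, and in anestrus long days make the hypothalamus more sensitive to estradiol's restraint. The pars tuberalis, the part of the pituitary around its stalk, carries melatonin receptors and relays day length to the hypothalamus.

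In the hypothalamus all 4 genes had their lowest mean in the luteal phase, an intermediate mean in the follicular phase and their highest mean in anestrus. Levels are in CPM, counts scaled to a common library size with TMM factors (trimmed mean of M values, a correction for libraries dominated by a few transcripts). They are not corrected for gene length and compare 1 gene across libraries only. In whole-tissue RNA, fewer cells of a type and less RNA per cell cannot be told apart.

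ENSOARG00000016596 held the first place in that order. Its level in the luteal hypothalamus ran from 13.4 to 19.7 CPM with a median of 16.5, in the follicular hypothalamus from 13.5 to 21.3 with a median of 17.9, and in the anestrous hypothalamus from 22 to 28.2 with a median of 25.1. No luteal and no follicular library reached the lowest anestrous one. The group means were 16.3 ± 2.06, 17.9 ± 2.60 and 24.8 ± 2.41 CPM (SD, n = 7 each) in that order, and luteal was 1.53-fold lower than anestrous (log2 difference -0.61 ± 0.117 SE).

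ENSOARG00000014131 was the steadiest of the 4 in the luteal phase. Its luteal level ran from 17.3 to 19.9 CPM with a median of 18.8, its follicular level from 17.9 to 24.1 with a median of 19.9, and its anestrous level from 22 to 28.9 with a median of 24.3. Every luteal library lay below every anestrous one, while the follicular libraries overlapped both groups. The means were 18.8 ± 0.836, 20.9 ± 2.36 and 24.5 ± 2.35 CPM (SD, n = 7 each), and luteal was 1.32-fold lower than anestrous (log2 difference -0.40 ± 0.0962 SE).

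ENSOARG00000016594 ran from 16.5 to 26.2 CPM in the luteal hypothalamus with a median of 22.2, from 21.7 to 26.4 in the follicular hypothalamus with a median of 25.6, and from 24.7 to 34.7 in the anestrous hypothalamus with a median of 29.6. Of the 7 luteal libraries 6 lay below the lowest anestrous one, as did 3 of the 7 follicular libraries. The means were 21.9 ± 2.98, 24.3 ± 2.17 and 29.8 ± 3.52 CPM (SD, n = 7 each), and luteal was 1.38-fold lower than anestrous (log2 difference -0.46 ± 0.11 SE).

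ENSOARG00000002400 had the widest difference of the 4 and the widest spread. It ran from 94.7 to 173 CPM in the luteal hypothalamus with a median of 149, from 110 to 183 in the follicular hypothalamus with a median of 160, and from 139 to 350 in the anestrous hypothalamus with a median of 232. The lowest anestrous value, 139 CPM, was that of library 15, whose scaling factor of 1.45 was the highest of the series. The remaining 6 anestrous libraries started at 188 CPM, above every luteal and every follicular library. The means were 136 ± 26.6, 148 ± 31.9 and 239 ± 76.0 CPM (SD, n = 7 each), and luteal was 1.77-fold lower than anestrous (log2 difference -0.82 ± 0.191 SE). Without library 15 the log2 difference was -0.91 ± 0.179 SE.

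**Figure D1:**
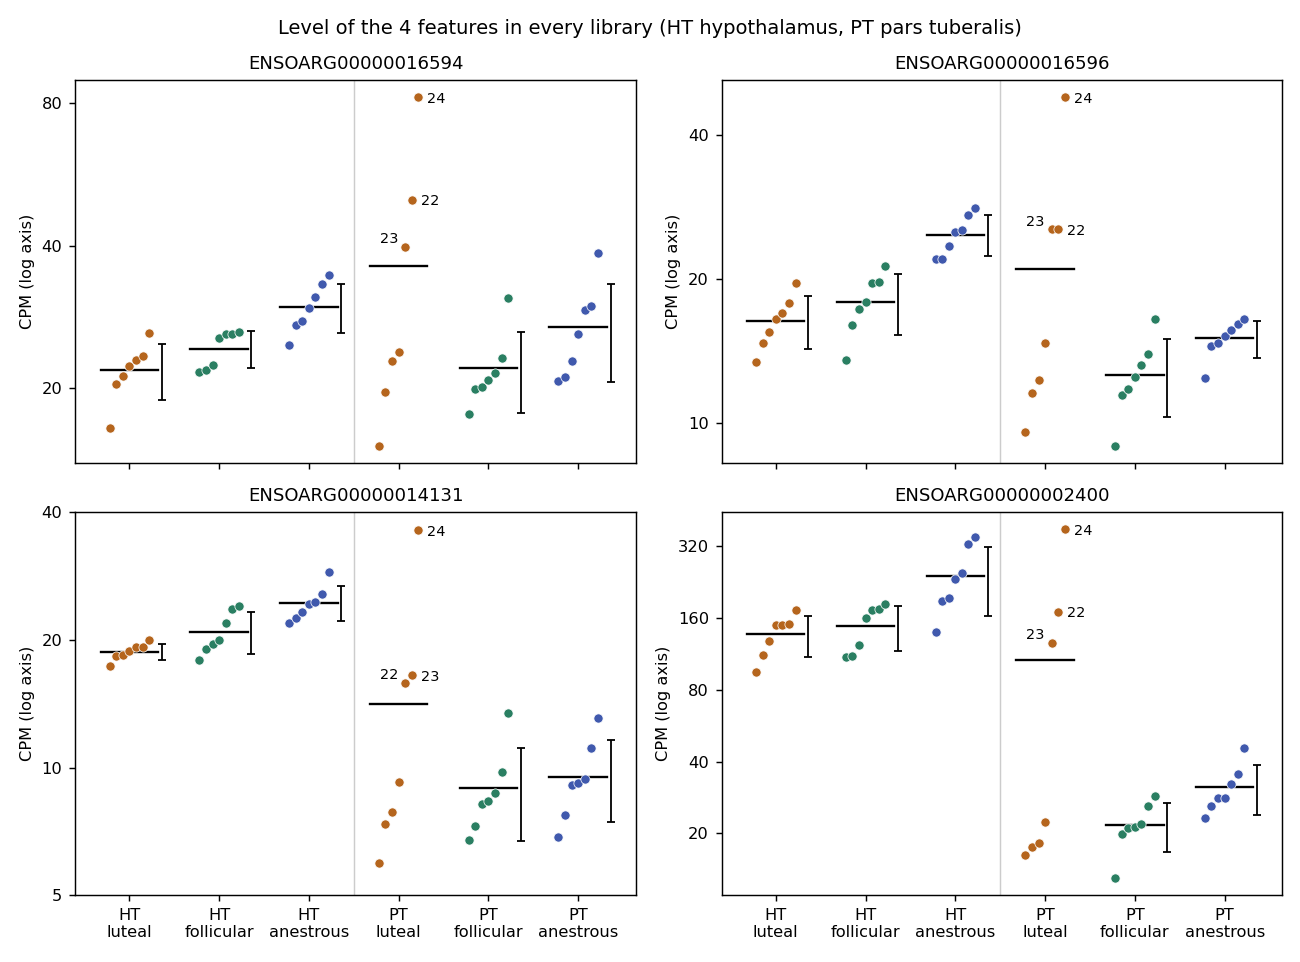
CPM of each gene (log axis) in all 42 libraries by tissue (HT, PT) and phase, 1 point per library ordered by level within its group; horizontal lines are means and bars to their right the SD, left out for the luteal PT, whose libraries fall apart (n = 7 each). In the HT the anestrous points sit highest for all 4 genes, and in the luteal PT libraries 22, 23 and 24 lie above all 18 other PT libraries.

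Luteal libraries lay wholly below anestrous ones for 2 of the 4 genes, against 0.0122% of the 16350 features tested (2 features, which are ENSOARG00000016596 and ENSOARG00000014131); as the rule used this contrast, nothing is read from the count. The median log2 difference of luteal minus anestrous was -0.54 over the 4 genes and -0.02 over all features. The next 2 features in the same order and direction were ENSOARG00000006630, at 16.2 ± 2.47 CPM in luteal and 309 ± 766 in anestrous libraries, and ENSOARG00000020448, at 2.25 ± 1.29 and 136 ± 353 CPM (SD, n = 7 each). Just inside the rule stood ENSOARG00000014131, whose anestrous SD was 2.35 CPM, and just outside it stood features whose anestrous SD exceeded their mean.

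The follicular hypothalamus stood nearer the luteal than the anestrous level in the mean of all 4 genes on the TMM scale. With unscaled library totals this held for ENSOARG00000002400 and ENSOARG00000016596 alone. The rule set the luteal and anestrous levels apart, so a follicular mean between them is a description and no independent result. On the log2 scale the follicular mean lay 14% of the way from the luteal to the anestrous mean for ENSOARG00000002400, 20.9% for ENSOARG00000016596, 35.2% for ENSOARG00000016594 and 38.6% for ENSOARG00000014131. Counted by library, 6 of 7 follicular libraries were nearer the luteal mean for ENSOARG00000016596 and for ENSOARG00000002400, 4 of 7 for ENSOARG00000014131 and 3 of 7 for ENSOARG00000016594. The follicular libraries thus lay mostly on the luteal side for the first pair of genes and were divided for the second pair.

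Follicular minus anestrous gave log2 differences of -0.48 ± 0.117 SE for ENSOARG00000016596, -0.71 ± 0.191 for ENSOARG00000002400, -0.31 ± 0.11 for ENSOARG00000016594 and -0.24 ± 0.0960 for ENSOARG00000014131. Luteal minus follicular gave -0.14 ± 0.117, -0.12 ± 0.190, -0.15 ± 0.11 and -0.16 ± 0.0960 in the same order of genes. Both comparisons contain libraries that chose the genes, the anestrous ones in the first and the luteal ones in the second, so neither is tested. Follicular libraries lay wholly below anestrous ones for 1 of the 4 genes, ENSOARG00000016596, against 0.0489% of the 16350 features.

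These phase differences moved with the scaling of the libraries. The median TMM factor was 0.825 in the anestrous, 0.944 in the luteal and 1.03 in the follicular hypothalamus. With library totals alone, a scale tried after the results were seen, the median follicular minus anestrous difference over all features shifted from -0.02 to 0.15 on the log2 scale, and that of the 4 genes from -0.39 to -0.21. The follicular mean was then nearer the anestrous than the luteal one for ENSOARG00000016594 (log2 difference -0.14 to anestrous, and luteal minus follicular -0.26) and for ENSOARG00000014131 (-0.055 and -0.28). It stayed nearer the luteal mean for ENSOARG00000002400 (-0.44 and -0.28) and, narrowly, for ENSOARG00000016596 (-0.28 and -0.26). Relative to all features the 4 genes stayed 0.37 lower with TMM and 0.35 lower with library totals. On that scale ENSOARG00000014131 differed least, with 21.5 ± 3.04 follicular and 22.3 ± 6.47 anestrous CPM of the unscaled library total (SD, n = 7 each). Luteal libraries then overlapped anestrous ones for all 4 genes. For ENSOARG00000002400, 6 of 7 luteal libraries lay below the lowest anestrous one with library totals, against 3 of 7 with TMM. From TMM to library totals this number fell from 6 to 4 for ENSOARG00000016594, from 7 to 5 for ENSOARG00000016596 and from 7 to 3 for ENSOARG00000014131.

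The pars tuberalis libraries were not used to choose the genes, so differences between its phases were tested. With edgeR's quasi-likelihood test over 16301 features, 0 of the 4 genes were called in the 3 comparisons (adjusted p under 0.05), and 0% of all features were. Over all features DESeq2 called 0, 3 and 11 and limma-voom 0, 1 and 0 for luteal minus anestrous, follicular minus anestrous and luteal minus follicular, with 0 of the 4 genes among them. In the luteal pars tuberalis libraries 22, 23 and 24 were high and the other 4 low for each gene. Because of them the genes stood higher in luteal than in anestrous pars tuberalis by the mean, the opposite direction to the hypothalamus, and without those 3 libraries they stood lower.

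ENSOARG00000002400 made the contrast plainest. Its luteal pars tuberalis libraries 22, 23 and 24 held 170, 126 and 375 CPM, and libraries 25, 26, 27 and 28 held 18.2, 22.4, 16.3 and 17.5 CPM. The first 3 lay within or above the hypothalamic range of the same gene, and the other 4 lay below the anestrous pars tuberalis, which ran from 23.3 to 45.5 CPM with a median of 28.3. The follicular pars tuberalis ran from 13 to 28.8 CPM with a median of 21.2.

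ENSOARG00000016594 held 50.0, 39.8 and 82.3 CPM in libraries 22, 23 and 24 and from 15.1 to 23.8 CPM in the other 4 luteal libraries. Its follicular pars tuberalis ran from 17.7 to 31 CPM with a median of 20.8 and its anestrous one from 20.7 to 38.5 with a median of 26.1. The 3 high values exceeded every hypothalamus library of this gene as well, where the highest was 34.7 CPM.

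ENSOARG00000016596 held 25.4 CPM in library 22, 25.4 in library 23 and 48.0 in library 24, against 9.59 to 14.7 CPM in the other 4. The follicular range was 9.0 to 16.5 CPM with a median of 12.5 and the anestrous range 12.4 to 16.5 with a median of 15.2. ENSOARG00000014131 held 15.8, 16.5 and 36.2 CPM in libraries 22, 23 and 24, against 5.95 to 9.26 CPM in the other 4. Its follicular range was 6.75 to 13.5 CPM with a median of 8.35 and its anestrous range 6.86 to 13.1 with a median of 9.18. For each of the 4 genes, all 3 libraries lay above all 18 other pars tuberalis libraries, on the TMM scale and also as CPM of the unscaled library total. The share of all features with this pattern was not counted, so it is not read as particular to the 4 genes. Some features outside the group, described below, also had a lower luteal mean without these libraries.

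Luteal minus anestrous pars tuberalis gave log2 differences of 0.41 ± 0.277 SE for ENSOARG00000016594, 0.46 ± 0.258 for ENSOARG00000016596, 0.55 ± 0.301 for ENSOARG00000014131 and 1.74 ± 0.569 for ENSOARG00000002400 (edgeR adjusted p = 0.999 for each). At an unadjusted p under 0.05, 1 of the 4 was higher in luteal libraries, against 1.72% of all features. In either direction 526 features (3.23%) did so. Without libraries 22, 23 and 24 the differences were -0.41 ± 0.183, -0.32 ± 0.150, -0.32 ± 0.199 and -0.76 ± 0.196 SE in that order, with edgeR adjusted p of 1 for each. The sign of this comparison thus rested on 3 of 7 luteal libraries in all 4 genes. Without library 24 alone the differences were 0.078 ± 0.224, 0.13 ± 0.196, 0.13 ± 0.225 and 0.97 ± 0.473 SE, and limma-voom with sample weights gave 0.10 ± 0.231, 0.14 ± 0.207, 0.15 ± 0.236 and 0.50 ± 0.489 SE with all 7 luteal libraries.

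Luteal minus follicular pars tuberalis gave 0.70 ± 0.278, 0.72 ± 0.259, 0.64 ± 0.302 and 2.27 ± 0.580 SE on the log2 scale for the genes in the same order, with edgeR adjusted p of 0.499, 0.489, 0.584 and 0.469. At an unadjusted p under 0.05, 4 of the 4 were higher in luteal libraries, against 4.99% of all features, and 1380 features (8.47%) differed in either direction. Without libraries 22, 23 and 24 they were -0.12 ± 0.181, -0.07 ± 0.149, -0.23 ± 0.198 and -0.23 ± 0.192 SE (edgeR adjusted p = 0.998 for each). The sign turned in all 4 genes here too. Without library 24 alone they were 0.37 ± 0.224, 0.38 ± 0.196, 0.23 ± 0.225 and 1.5 ± 0.478 SE, and limma-voom gave 0.47 ± 0.244, 0.43 ± 0.219, 0.36 ± 0.248 and 1.13 ± 0.525 SE with all 7 luteal libraries.

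Follicular minus anestrous pars tuberalis does not contain the 3 high libraries in its groups. The log2 differences were -0.29 ± 0.277 SE for ENSOARG00000016594, -0.26 ± 0.258 for ENSOARG00000016596, -0.09 ± 0.301 for ENSOARG00000014131 and -0.53 ± 0.558 for ENSOARG00000002400, with edgeR adjusted p of 0.844, 0.854, 0.967 and 0.861. At an unadjusted p under 0.05 there were 0 of the 4, against 2.75% of all features lower in follicular libraries and 1055 features (6.47%) in either direction. The 3 phases shared 1 estimate of the spread, and leaving the 3 luteal libraries out narrowed the standard error of ENSOARG00000002400 to 0.162 at the same difference (edgeR adjusted p = 0.502). For this gene 5 of 7 follicular libraries lay below the lowest anestrous one. The difference of ENSOARG00000014131 was 0.00096 without anestrous library 42, 0.046 with library totals and 0.047 with a covariate for the counts held by the 10 largest features, so its sign was not settled.

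**Figure D2:**
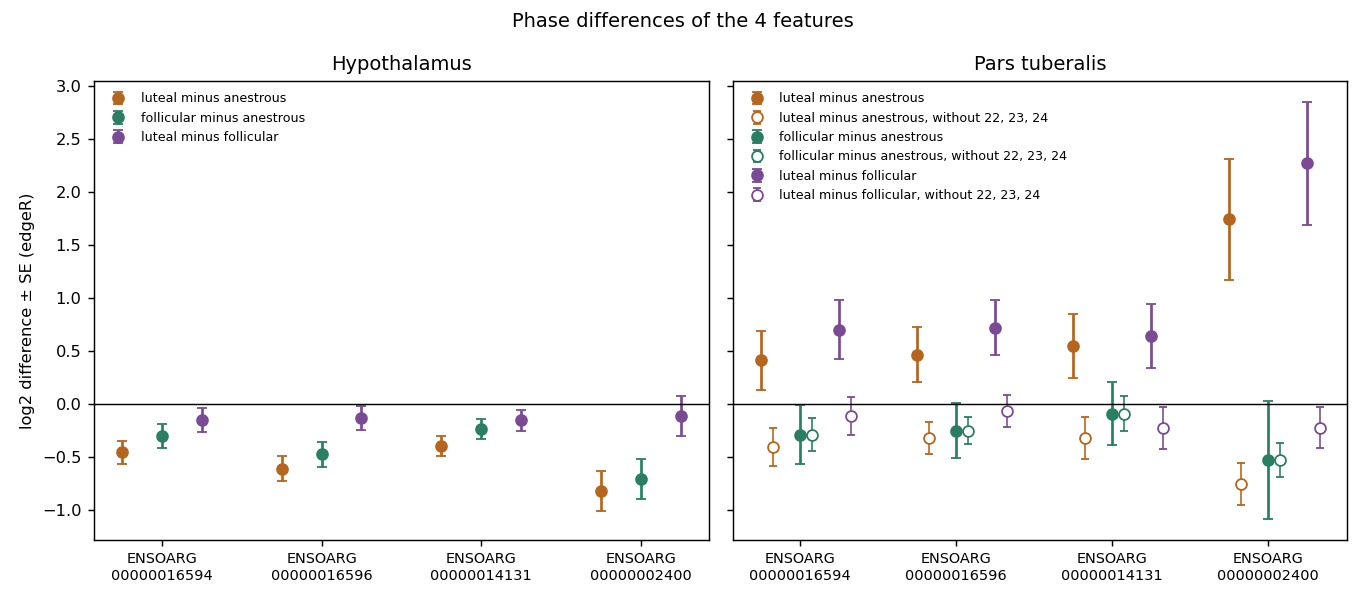
Log2 differences between phases for each gene in the HT (left) and the PT (right) with the standard error of the edgeR fit; open points leave out luteal PT libraries 22, 23 and 24. HT differences lie below 0 in all 3 comparisons, and both luteal comparisons in the PT move from above to below 0 when the 3 libraries are left out.

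Other values of the 3 libraries were compared with the rest of the tissue. A list of 245 features over 32-fold higher in the follicular hypothalamus than in the follicular pars tuberalis (also past a test against a 2-fold difference) served as a measure of hypothalamic signal. Its summed level was 451, 666 and 467 CPM in libraries 22, 23 and 24, within the luteal pars tuberalis range of 423 to 1033 CPM, whose top was library 26. Hypothalamus libraries held between 7049 and 46648 CPM of it. The matching list of 107 features higher in the pars tuberalis summed to 4837, 6588 and 4824 CPM in the 3 libraries, within the luteal range of 4658 to 6687 CPM. Their 10 largest features took 18.3%, 14.9% and 35.2% of counts, the last 2 being the ends of the luteal range. The part of depth and library makeup in the high values was not tested.

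**Figure D3:**
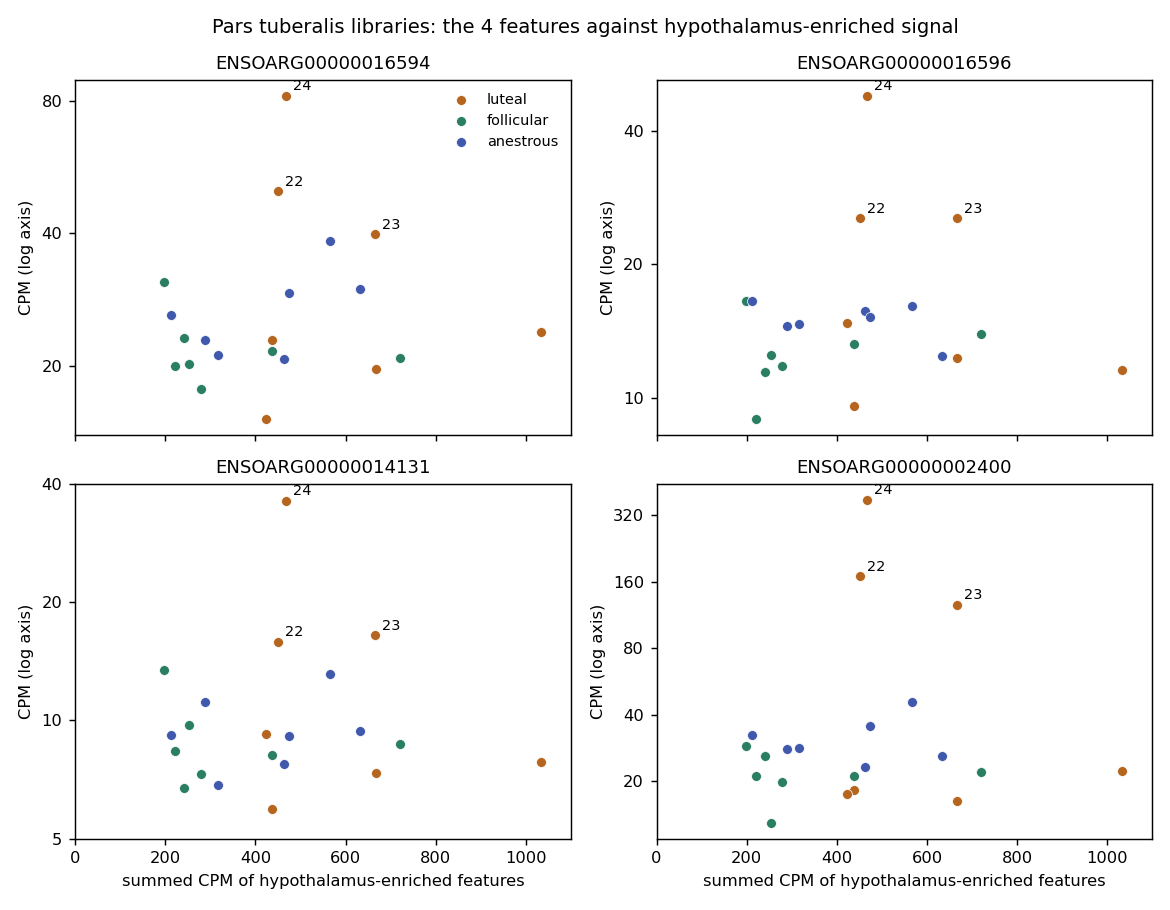
CPM of each gene (log axis) in the 21 PT libraries against the summed CPM of 245 hypothalamus-enriched features, coloured by phase. Libraries 22, 23 and 24 are high for every gene while their summed level, from 451 to 666 CPM, sits inside the range of the other luteal libraries.

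Since libraries 22, 23 and 24 form a separate cluster, the relation among the genes was computed over the other 18 pars tuberalis libraries, with 10 relations in the family. ENSOARG00000016594 and ENSOARG00000002400 were correlated there (Pearson's r = 0.784, permutation p = 0.00016, adjusted p = 0.0016; Spearman's rho = 0.808, permutation p = 0.00011, adjusted p = 0.0011). Without the 2 libraries farthest from the median on the first gene, 42 and 28, r was 0.665, and with phase means removed it was 0.692. ENSOARG00000016596 and ENSOARG00000014131 had r = 0.595 (permutation p = 0.00942, adjusted p = 0.0471) and rho = 0.589 (permutation p = 0.0117, adjusted p = 0.0389). Without libraries 29 and 25 their r was 0.588, and with phase means removed 0.546. ENSOARG00000016596 and ENSOARG00000002400 had r = 0.540 (permutation p = 0.0213, adjusted p = 0.0533) and rho = 0.600 (permutation p = 0.00932, adjusted p = 0.0389), with r = 0.572 without the same 2 libraries and 0.223 with phase means removed. Other features were more strongly correlated with each gene, among 13804 features of at least 1 CPM on average in both tissues. By r over the 18 libraries, the first pair held places 27 and 23, counted from each gene in turn. The second pair held places 323 and 107, and the third 599 and 394. The permutation p does not take this background into account.

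The other 3 pairs had r between 0.355 and 0.555 with adjusted permutation p from 0.0533 to 0.247, and rho between 0.356 and 0.401 with an adjusted permutation p of 0.245 for each. Against the summed hypothalamus-enriched level, r over the 18 libraries ran from -0.144 to 0.0868 in the 4 genes, with adjusted permutation p from 0.807 to 0.897, and rho from -0.135 to 0.0568, with adjusted permutation p from 0.806 to 0.824. With the 2 libraries farthest from the median of that level left out, 26 and 33, r ran from 0.0554 to 0.236. Over all 21 pars tuberalis libraries r ran from 0.087 to 0.190, with adjusted permutation p from 0.577 to 0.718. There rho ran from 0.0675 to 0.208, with adjusted permutation p from 0.518 to 0.771. None of these 4 relations passed the adjusted threshold over either set of libraries. The relations over 18 libraries leave out 22, 23 and 24, so they do not bear on the high values of those libraries.

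In the hypothalamus, likeness of pattern was described without a test, because the shared luteal and anestrous levels chose the genes. Over the 21 hypothalamus libraries ENSOARG00000016596 had its highest r with ENSOARG00000014131 (0.831) and its second highest with ENSOARG00000002400 (0.804), among 13804 features of at least 1 CPM on average in both tissues. With phase means removed these fell to 0.532 and 0.554. ENSOARG00000016594 was less like the rest, with r of 0.559, 0.627 and 0.456 to ENSOARG00000016596, ENSOARG00000014131 and ENSOARG00000002400, and with phase means removed -0.194, 0.0557 and -0.144. Within phases ENSOARG00000016594 was thus the least correlated with the other 3.

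Features outside the group with the most similar hypothalamic pattern were sought for each gene. ENSOARG00000016422 was the closest to both ENSOARG00000016596 (r = 0.781, rho = 0.740 over 21 libraries) and ENSOARG00000014131 (r = 0.787, rho = 0.697), and over the 18 pars tuberalis libraries without 22, 23 and 24 its r with them was 0.658 and 0.328. Its hypothalamic means were 11.2 ± 2.13 (luteal), 13 ± 3.19 (follicular) and 17.2 ± 3.40 CPM (anestrous), and those of its pars tuberalis were 11.8 ± 7.86, 6.38 ± 1.16 and 8.22 ± 0.937 CPM (SD, n = 7 each). Without libraries 22, 23 and 24 its luteal pars tuberalis mean was 7.04 ± 0.729 CPM (SD, n = 4).

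ENSOARG00000000336 was the closest to ENSOARG00000002400 (r = 0.843, rho = 0.708), and its r over the 18 pars tuberalis libraries was 0.837. Its hypothalamic means were 57.8 ± 7.44 (luteal), 56.8 ± 3.34 (follicular) and 67.7 ± 10.2 CPM (anestrous), and its luteal pars tuberalis mean was 59.0 ± 43.0 CPM (SD, n = 7 each), or 30.3 ± 1.99 CPM without libraries 22, 23 and 24 (SD, n = 4). ENSOARG00000010117 was the closest to ENSOARG00000016594 (r = 0.760, rho = 0.753), with r = 0.508 over the 18 pars tuberalis libraries. The second closest were ENSOARG00000017833 for ENSOARG00000016594 (r = 0.721, rho = 0.644), ENSOARG00000019999 for ENSOARG00000016596 (r = 0.736, rho = 0.712), ENSOARG00000007399 for ENSOARG00000014131 (r = 0.716, rho = 0.653) and ENSOARG00000014475 for ENSOARG00000002400 (r = 0.833, rho = 0.806). In the 18 pars tuberalis libraries the likeness held least for ENSOARG00000017833, with r = -0.0604, and for ENSOARG00000019999, with r = 0.105.

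The tissues were compared in the follicular phase, whose levels took no part in the choice. The follicular hypothalamus libraries did enter the spread of the fit that ordered the features. The genes were chosen for a small spread, so the tissue p-values and calls are not wholly independent of the choice. ENSOARG00000002400, ENSOARG00000014131 and ENSOARG00000016596 were lower in the pars tuberalis, and ENSOARG00000016594 was not called. ENSOARG00000002400 was 6.78-fold lower, with 21.8 ± 4.99 CPM in the pars tuberalis against 148 ± 31.9 in the hypothalamus (SD, n = 7 each; log2 difference -2.76 ± 0.455 SE, edgeR adjusted p = 2.62e-06). ENSOARG00000014131 was 2.33-fold lower, with 8.93 ± 2.22 against 20.9 ± 2.36 CPM (log2 difference -1.22 ± 0.233 SE, edgeR adjusted p = 2.67e-05). For both genes every follicular pars tuberalis library lay below every follicular hypothalamus library, as for 14.9% of the 17296 features tested.

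ENSOARG00000016596 was 1.42-fold lower, with 12.6 ± 2.34 against 17.9 ± 2.60 CPM (log2 difference -0.50 ± 0.207 SE, edgeR adjusted p = 0.0346). That call was lost without follicular hypothalamus library 9, 10 or 12 (edgeR adjusted p = 0.0678, 0.0570 and 0.0563) and without follicular pars tuberalis library 29, 30, 31 or 34 (0.0798, 0.0529, 0.0548 and 0.0582). It was also lost with no filter on low counts (0.0552), with the covariate for the 10 largest features (0.0846) and with library totals (0.172). Luteal pars tuberalis libraries 22, 23 and 24 are in neither group but share in the filter, scaling and estimate of the spread. Without them the edgeR adjusted p was 0.000384, at a log2 difference of -0.50 ± 0.117 SE. ENSOARG00000016594 had 22 ± 4.29 and 24.3 ± 2.17 CPM (log2 difference -0.14, 95% interval -0.58 to 0.30, edgeR adjusted p = 0.599). So 3 of the 4 genes were called lower in the pars tuberalis, where 31.2% of all features were, and the median log2 difference was -0.86 over the 4 genes and -0.04 over all features.

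Ranked by group mean, ENSOARG00000014131 and ENSOARG00000002400 had the same order: anestrous, follicular and luteal hypothalamus, then luteal, anestrous and follicular pars tuberalis. For ENSOARG00000016596 the luteal pars tuberalis, at 21 ± 13.6 CPM, came second after the anestrous hypothalamus, and for ENSOARG00000016594 it came first, at 36.2 ± 23.7 CPM (SD, n = 7 each). Without libraries 22, 23 and 24 the luteal pars tuberalis mean was 20.4 ± 3.92 CPM for ENSOARG00000016594, 12 ± 2.13 for ENSOARG00000016596, 7.61 ± 1.37 for ENSOARG00000014131 and 18.6 ± 2.65 for ENSOARG00000002400 (SD, n = 4 each), the lowest of the 6 group means in all 4 genes. With all libraries, the ranges of every pair of neighbours in these orders overlapped.

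The coefficient of variation (SD over mean) of the 4 genes was 64.6% to 126% in the luteal pars tuberalis, where the median over features was 25.4%. Without libraries 22, 23 and 24 it was 14.2% to 19.3% there, against a median of 21.6% over features, so the wide luteal spread rested on those 3 libraries. In the follicular pars tuberalis it was 18.6% to 24.9% against a median of 24.9%, and in the anestrous one 8.96% to 23.6% against 23.2%. In the follicular hypothalamus it was 8.95% for ENSOARG00000016594, 11.3% for ENSOARG00000014131, 14.5% for ENSOARG00000016596 and 21.6% for ENSOARG00000002400, against a median of 28% over features. Of all features, 5.03%, 10.1%, 18.7% and 36.9% had a lower value there, in that order of genes. Follicular libraries entered the spread of the fit that ordered the features, so nothing is read from these values.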

How the data were processed

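Per the submitters' processing notes, which give no roles, the tools were R 3.5.1, DESeq2, StringTie 1.3.5, HISAT2 2.1.0, Trimmomatic 0.38, FastQC 0.11.5 and SAMtools 1.7. The authors deposited unnormalized gene counts for the 42 libraries, keyed by Ensembl sheep ID. For the build, annotation, strand and reads shared between paralogs, the handling is not given in the sources used here. A member that overlaps another gene, or has a close copy, therefore has an uncertain count. All 42 columns were matched to samples by library number, tissue and phase. Tests used the robust quasi-likelihood F test of edgeR 4.0.16 under R 4.3.3 (two-sided, TMM, filterByExpr with a minimum count of 10, Benjamini-Hochberg over all features, threshold 0.05), with 1 fit per tissue (16350 features in the hypothalamus, 16301 in the pars tuberalis) and 1 fit of all 42 libraries (17296) for the tissue difference. All 4 members passed the filter in each fit. Standard errors are from the same fits. Correlations used log2(CPM + 0.5) and 100000 permutations, two-sided. Other settings were DESeq2 1.42.0, RLE factors, other filters, limma-voom with sample weights (limma 3.58.1), only the compared groups, a covariate, library totals without scaling factors (added after seeing the data), and leaving out each library or libraries 22, 23 and 24. The members and lists were chosen with earlier results of these data known. The named features are the members and, for each, the 2 with the highest r in the hypothalamus, plus the 2 that follow the members in the order of the rule. The fits were tested on simulated data. For follicular minus anestrous pars tuberalis edgeR called 56% of the 2-fold and 87% of the 4-fold changes, with 6 of 149 calls false. For the tissue difference it called 48% and 84%, with 4 of 136 false. Changes under 2-fold, such as those of the 4 genes in follicular minus anestrous pars tuberalis, were not simulated.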

Additional observations from a re-analysis of the deposited data

Results flagged for a closer look

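In 4 of the 24 combinations of gene and group, 1 library stood apart from the other 6 by Dixon's criterion, which chance meets in about 1 of 20 independent groups. In the luteal pars tuberalis library 24 did so for 3 genes: ENSOARG00000002400 at 375 CPM against 170 in the next library, ENSOARG00000016596 at 48.0 against 25.4, and ENSOARG00000014131 at 36.2 against 16.5. Library 24 had the lowest TMM factor of the pars tuberalis (0.706) and the highest share of counts in its 10 largest features (35.2%). As CPM of the unscaled library total, libraries 22, 23 and 24 held 199, 157 and 265 of ENSOARG00000002400, 29.8, 31.7 and 33.9 of ENSOARG00000016596, and 18.6, 20.6 and 25.6 of ENSOARG00000014131, so library 24 stood less far apart on that scale. In the follicular pars tuberalis library 33 held 31 CPM of ENSOARG00000016594, with 23.2 in the next library. The 24 combinations are not independent, so the count is not set against the chance rate. The 3 genes flagged for library 24 had r of 0.952 to 0.995 among themselves in the luteal pars tuberalis. The rule asked for a small spread in the luteal and anestrous hypothalamus.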

How the results depend on the processing

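The hypothalamic differences kept their sign in all 4 genes under every setting tried. The rule set the luteal minus anestrous sign in these same libraries, so its persistence is no independent support. With library totals, follicular minus anestrous hypothalamus of ENSOARG00000014131 shrank to -0.055 ± 0.175 SE. The median luteal minus anestrous log2 difference ranged from -0.56 to -0.50 when 1 library was left out. No member was called in the pars tuberalis phase comparisons under any setting. Over all features, DESeq2 called 3 for follicular minus anestrous and 11 for luteal minus follicular pars tuberalis, and limma-voom called 1 for follicular minus anestrous, where edgeR called 0; the cause was not tested. Without luteal pars tuberalis libraries 22, 23 and 24, luteal minus anestrous turned to -0.41, -0.32, -0.32 and -0.76 and luteal minus follicular to -0.12, -0.069, -0.23 and -0.23 (ENSOARG00000016594, ENSOARG00000016596, ENSOARG00000014131, ENSOARG00000002400), and 2 of 10 relations passed by r in place of 6; these settings have fewer samples. Follicular minus anestrous pars tuberalis of ENSOARG00000014131 turned to 0.047 with the covariate and 0.046 with library totals, and ranged from -0.22 to 0.00096 with 1 library left out. The difference of ENSOARG00000016594 in that comparison was -0.18 without anestrous library 42. Luteal minus follicular hypothalamus of ENSOARG00000002400 ranged from -0.19 without luteal library 3 to -0.058 without follicular library 10. The tissue difference of ENSOARG00000016594 turned to 0.0049 with library totals. The cause of these turns was not tested. No paired analysis was possible because library numbers run from 1 to 42 and no number is shared between groups. Gene lengths were not used here, so levels of different genes are not compared.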
